A study of Homo sapiens with 6 samples.

Results

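The genes described here are 31 genes of cholesterol synthesis, of its control by the transcription factor SREBP2, and of the handling of cholesterol that cells take up. They were chosen by name, and all 31 were found among the 34893 genes with a transcript in the files. The data are poly(A) RNA sequencing of THP-1, an established human monocytic leukaemia line, bought from 2 repositories, ATCC and DSMZ. Each source gave 3 untreated cultures, kept side by side in RPMI medium containing 20% fetal bovine serum for 48 h, split, and grown for 24 h more. No genotype or treatment separates the sources in the labels, and serum, an outside supply of lipoprotein cholesterol, was given to both. The labels call the replicate expansions independent, so p-values rest on the spread between cultures of 1 stock per source. A source effect and an effect of that particular stock cannot be told apart.

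Cells build cholesterol from acetyl-CoA through mevalonate, isoprenoid diphosphates, squalene and lanosterol. When sterols in the endoplasmic reticulum run low, SCAP escorts SREBP2 to the Golgi, where a pair of proteases releases its active part, which switches on the genes of the pathway. INSIG proteins hold SCAP back when sterols are plentiful. Monocytes and macrophages also take in much cholesterol as lipoprotein, free it in lysosomes with acid lipase and the NPC proteins, and store the excess as ester.

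Library totals ran from 23413428 to 37119721 estimated counts, and the 31 genes had between 123 and 10864 counts in any library. Levels are given in TPM, a length-scaled abundance, and differences as log2 fold changes of the counts, DSMZ minus ATCC, with standard error (SE). All 10 monocytic identity genes were detected in every library and summed to 926 to 1204 TPM in ATCC and 859 to 997 in DSMZ, but 8 of the 10 were called different, 3 higher in DSMZ and 5 in ATCC. MPO was at 4.58 to 4.94 TPM in ATCC and 28.4 to 40.8 in DSMZ, and CD14 was low, at 0.236 to 1.79 TPM in all. Of 7 T and NK cell genes, CD3E was at 0 throughout and the list summed to 13.6 to 18.2 TPM in ATCC and 6.64 to 7.28 in DSMZ, mostly NKG7. The B cell genes MS4A1 and IGHM, the erythroid gene ALAS2 and the hepatocyte gene TTR were at 0 in all 6 libraries. ATCC replicate 2 stood apart by base composition. Its genes in the lowest of 10 groups by GC content had a median log2 deviation of -0.94 from the other ATCC libraries, and those in the highest group 0.34. The GC content of the 31 genes ran from 35.4 to 64.8%, so each gene's test was also computed with an offset for GC content. TPM levels, their sums and ratios, transcript shares and medians of neighbouring genes carry no such offset. In bulk RNA, fewer cells with a transcript and less transcript per cell cannot be told apart.

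The question was which steps of the pathway differ between the stocks. In the edgeR quasi-likelihood test, 16 of the 31 genes (51.6%) passed a Benjamini-Hochberg adjusted p of 0.05, beside 49.8% of all 14569 genes tested, so the set as a whole was called about as often as any gene. Of the 16, 5 were higher in DSMZ (24.1% of all genes were) and 11 were higher in ATCC (25.7% of all genes). The 5 were ACAT2, IDI1, INSIG1, INSIG2 and SOAT1. The 11 were GGPS1, FDFT1, SQLE, TM7SF2, MSMO1, NSDHL, HSD17B7, EBP, SC5D, DHCR7 and MBTPS2. The calls fell unevenly along the pathway. Of the 12 enzymes from squalene synthase to the end of the pathway, 9 were higher in ATCC and 0 in DSMZ, with a median log2 fold change of -0.77 beside 0.01 over all genes. Of the 8 enzymes before squalene, 1 was higher in ATCC and 2 in DSMZ, with a median of 0.06. The TPM of the sources did not overlap in 16 of the 31 genes, beside 57.2% of all genes. With the GC offset, 13 were higher in ATCC and 7 in DSMZ, beside 64.5% of all genes called. That fit kept 15 of the 16 calls, lost SOAT1 and added PMVK, CYP51A1, SREBF2, SCAP and NPC2. The number higher in DSMZ rested on single libraries: it was 9 without ATCC replicate 2, where 64% of all genes were called, and 3 without ATCC replicate 3, DSMZ replicate 2 or DSMZ replicate 3, where 39.7, 37.1 and 38.2% of all genes were called. IDI1, GGPS1, FDFT1, SQLE, NSDHL, HSD17B7, EBP, DHCR7, INSIG1, INSIG2 and MBTPS2 passed in all 19 other fits.

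**Figure D1:**
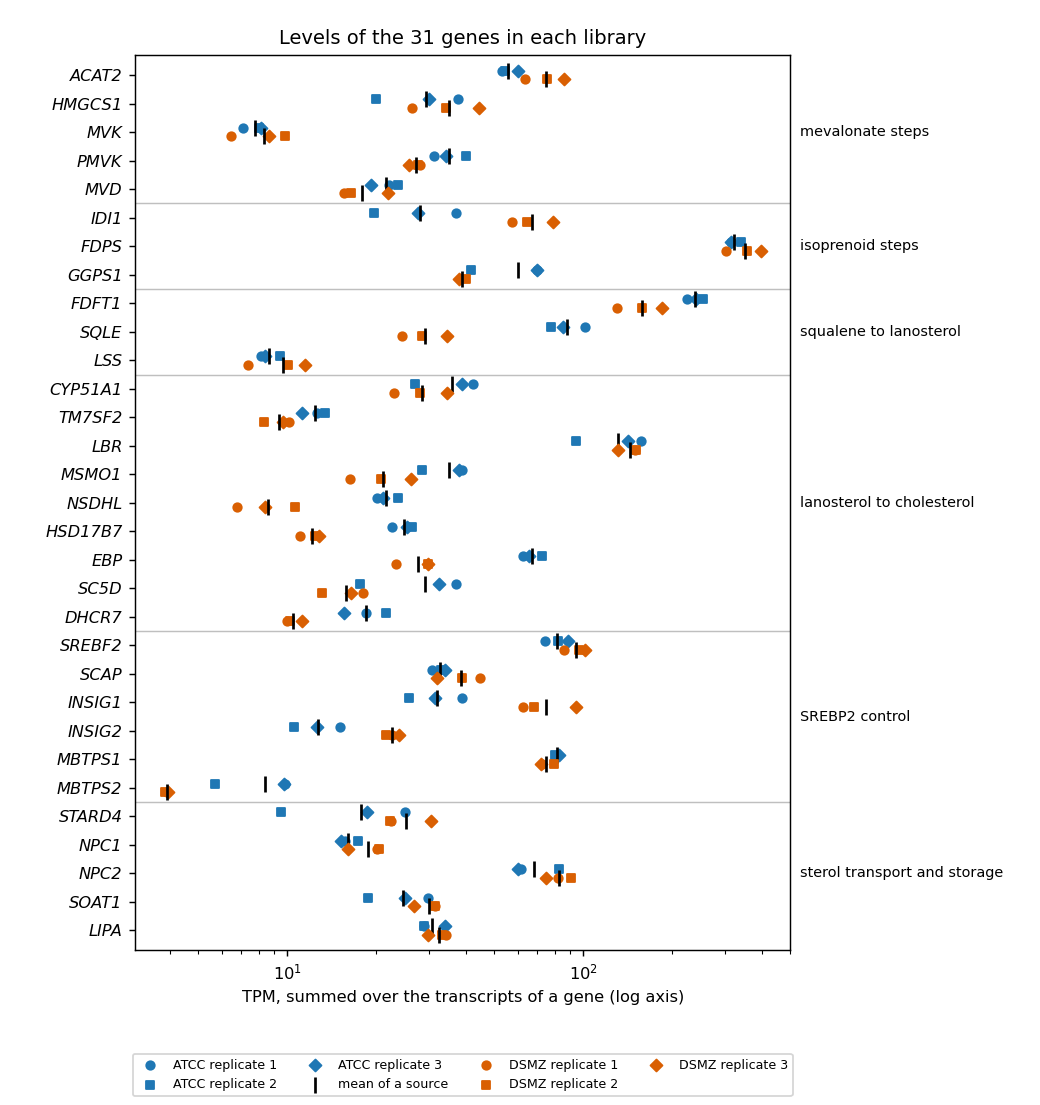
TPM of each of the 31 genes (rows, in pathway order) in each of the 6 libraries on a log axis, with a bar at the mean of a source. The 3 DSMZ libraries lie below the 3 ATCC libraries for SQLE (24.4 to 34.6 against 77.5 to 101 TPM) and EBP, and above them for IDI1 and INSIG1.

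**Figure D2:**
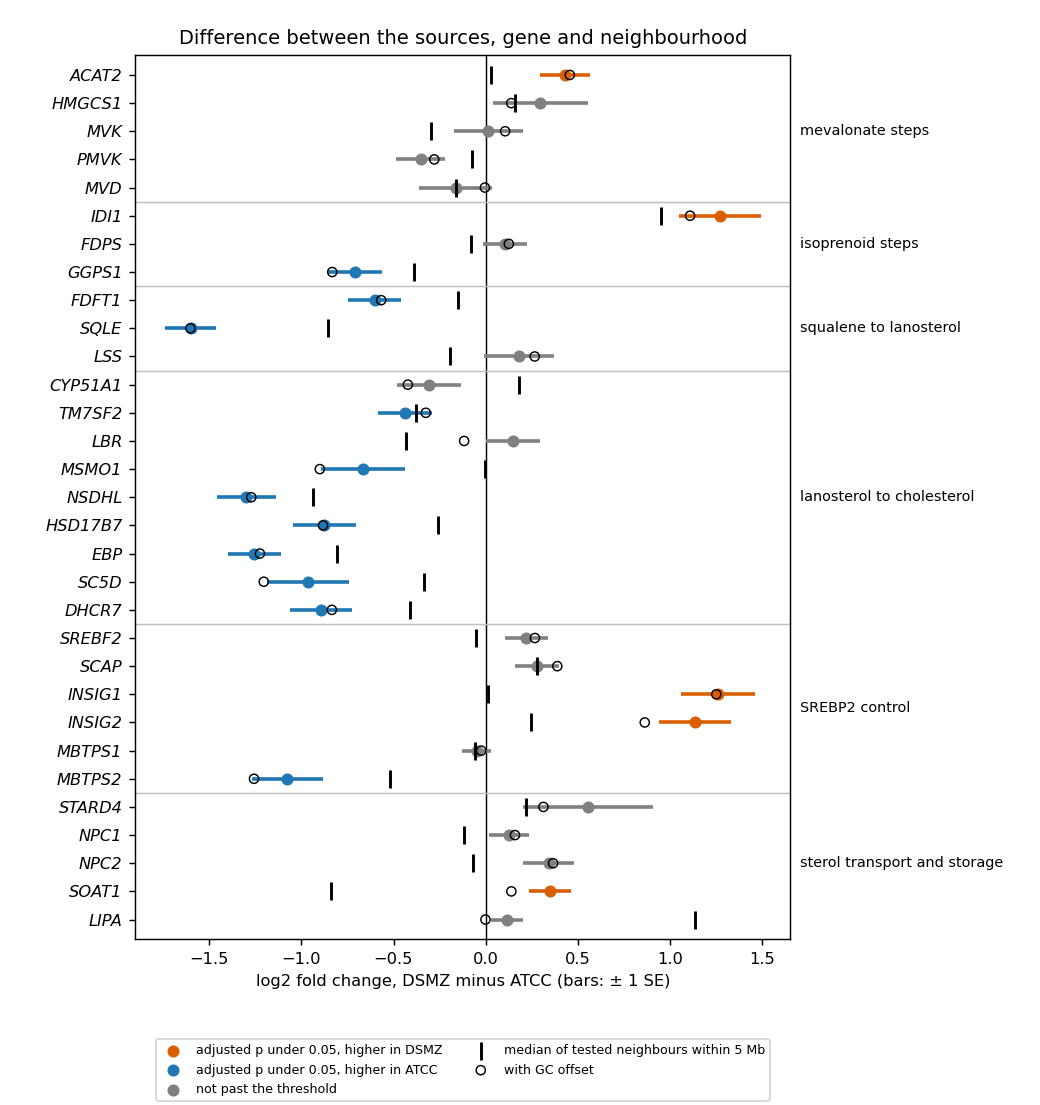
Log2 fold change (DSMZ minus ATCC) of each gene with 1 SE, coloured by the edgeR call, with the value under the GC offset as an open circle and the median of tested genes within 5 Mb as a black bar. From FDFT1 to DHCR7, 9 of 12 genes lie left of 0 and past the threshold, and IDI1, INSIG1 and INSIG2 lie right of 0.

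Of 5 enzymes between acetyl-CoA and isopentenyl diphosphate, which do not cover every step, 1 was called. ACAT2, the cytosolic thiolase that joins acetyl-CoA units (ENSG00000120437.8, chromosome 6, 159760328 to 159779055), was at 53.0, 54.4 and 60.0 TPM in ATCC and 63.7, 75.6 and 85.9 in DSMZ. The sources did not overlap, and the log2 fold change was 0.43 (SE 0.14; edgeR adjusted p = 0.0319). The protein-coding transcript gave only 11.2% of this level in ATCC and 10.5% in DSMZ, and on coding transcripts alone the call was lost (0.37, adjusted p = 0.0748). It was also lost without ATCC replicate 1 or 3 or DSMZ replicate 2 or 3 (adjusted p of 0.0934 to 0.122). ACAT2 also overlaps TCP1 on the other strand, a chaperonin gene that was itself higher in DSMZ (0.25, adjusted p = 0.0233), and no source used here says whether reads were assigned by strand. HMGCS1, the cytosolic HMG-CoA synthase and a known SREBP2 target, was at 37.8, 20.0 and 30.1 TPM in ATCC and 26.4, 34.2 and 44.6 in DSMZ. Its sources overlapped, with ATCC replicate 2 the lowest of all 6, and 2 SE around the log2 fold change of 0.30 spanned -0.22 to 0.81 (adjusted p = 0.375).

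Mevalonate kinase, MVK, was low in both sources, at 7.76 ± 0.57 TPM in ATCC and 8.31 ± 1.73 in DSMZ (SD, n = 3), with a log2 fold change of 0.01 (SE 0.19; adjusted p = 0.957). Phosphomevalonate kinase, PMVK, was at 31.4, 40.0 and 34.3 TPM in ATCC and 28.1, 27.7 and 25.7 in DSMZ. Its libraries did not overlap, but it missed the threshold (-0.35, SE 0.13; adjusted p = 0.0602) and passed with the GC offset (-0.28, adjusted p = 0.00668). The decarboxylase MVD was at 21.6 ± 2.25 TPM in ATCC and 17.9 ± 3.50 in DSMZ, and 2 SE spanned -0.56 to 0.24 (adjusted p = 0.526).

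The isoprenoid steps moved apart from each other. IDI1, the isomerase that makes dimethylallyl diphosphate (ENSG00000067064.11, chromosome 10, 1039152 to 1049170), was at 37.0, 19.5 and 27.7 TPM in ATCC and 57.3, 64.4 and 78.9 in DSMZ. Every DSMZ library was above every ATCC library, with a log2 fold change of 1.27 (SE 0.22; adjusted p = 0.00238), the highest among the 31 genes. FDPS, which makes farnesyl diphosphate, had the highest level of the 31, with 323 ± 14.5 TPM in ATCC and 353 ± 47.0 in DSMZ. Most of that came from short transcripts annotated as non-coding, and its coding transcripts summed to 47.8 and 50.8 TPM. FDPS was not called (0.11, SE 0.12; adjusted p = 0.489). GGPS1, which makes the geranylgeranyl diphosphate used to prenylate small GTPases, was at 69.5, 41.6 and 69.5 TPM in ATCC and 38.2, 40.1 and 38.0 in DSMZ. It was lower in DSMZ (-0.71, SE 0.15; adjusted p = 0.0054), although ATCC replicate 2 lay close to the DSMZ libraries. With the GC offset the value was -0.83. GGPS1 lies inside the span of TBCE on the same strand, a tubulin-folding gene with -0.99 (adjusted p = 0.000154).

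Squalene synthase and squalene epoxidase, the first committed sterol steps, were both lower in DSMZ. FDFT1 (ENSG00000079459.12, chromosome 8, 11795573 to 11839309), which joins farnesyl units into squalene, was at 223, 253 and 239 TPM in ATCC and 130, 158 and 184 in DSMZ (-0.60, SE 0.14; adjusted p = 0.0103). SQLE (ENSG00000104549.11, chromosome 8, 124998497 to 125022283), the epoxidase and a rate-limiting step of the sterol branch, was at 101, 77.5 and 85.5 TPM in ATCC. In DSMZ it was at 24.4, 28.4 and 34.6 TPM. The log2 fold change of -1.60 (SE 0.14; adjusted p = 0.000103) was the lowest of the 31 genes, and the lowest ATCC library was far above the highest DSMZ library. LSS, which closes the rings to lanosterol, was low in both, at 8.67 ± 0.68 TPM in ATCC and 9.64 ± 2.08 in DSMZ. It was not called (0.18, SE 0.19; adjusted p = 0.462), and its 2 SE spanned -0.20 to 0.56, a range that holds neither the value of FDFT1 nor that of SQLE.

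Lanosterol is then stripped of methyl groups. CYP51A1, the C14 demethylase, was at 42.4, 26.9 and 38.8 TPM in ATCC and 22.9, 28.1 and 34.6 in DSMZ. These overlapped (-0.31, SE 0.17; adjusted p = 0.175), and the gene passed with the GC offset (-0.42, adjusted p = 0.00974). The next step, C14 reduction, has a pair of enzymes. TM7SF2, the endoplasmic reticulum form, was at 12.4 ± 1.11 TPM in ATCC and 9.39 ± 0.93 in DSMZ (-0.44, SE 0.15; adjusted p = 0.0397). TM7SF2 passed in only 8 of 20 fits, and leaving out any library but ATCC replicate 1 lost the call (adjusted p of 0.058 to 0.139). LBR, the lamin B receptor of the inner nuclear membrane with the same activity, was at 131 ± 32.5 TPM in ATCC and 144 ± 11.3 in DSMZ, and was not called (0.15, SE 0.15; adjusted p = 0.424). LBR transcript exceeded TM7SF2 transcript 7.05- to 12.7-fold in the ATCC libraries and 13.5- to 18.1-fold in the DSMZ libraries. The 3 enzymes of C4 demethylation were all called lower in DSMZ with the 6 libraries. MSMO1, the C4 methylsterol oxidase, was at 38.9, 28.5 and 38.0 TPM in ATCC and 16.2, 20.7 and 26.3 in DSMZ (-0.66, SE 0.23; adjusted p = 0.0434). That call was lost without ATCC replicate 1 (adjusted p = 0.0729), ATCC replicate 3 (0.0797), DSMZ replicate 1 (0.118) or DSMZ replicate 2 (0.124), with -0.51 to -0.68 in these fits. NSDHL, the C4 decarboxylating dehydrogenase (ENSG00000147383.10, chromosome X, 152830967 to 152869729), was at 20.1, 23.6 and 21.1 TPM in ATCC. In DSMZ it was at 6.78, 10.6 and 8.41 TPM (-1.30, SE 0.16; adjusted p = 0.000467). The libraries of the sources were far apart for NSDHL and nearer for MSMO1, where DSMZ replicate 3 came close to ATCC replicate 2.

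HSD17B7, the 3-ketosterol reductase that ends C4 demethylation, was at 24.7 ± 1.92 TPM in ATCC and 12.1 ± 0.92 in DSMZ (-0.88, SE 0.17; adjusted p = 0.00397). Coding transcripts gave 27.9% of HSD17B7 in ATCC and 30.7% in DSMZ, with -0.86 on these alone (edgeR adjusted p = 0.0186). Its transcribed pseudogene HSD17B7P2 went the other way, with 22 to 39 counts in ATCC and 32 to 91 in DSMZ (0.85, adjusted p = 0.0408). Reads may be split between these similar sequences, and the pseudogene held 5.43 to 26.6% as many counts as HSD17B7, so the size of the HSD17B7 difference is uncertain. EBP, the sterol isomerase also called emopamil-binding protein (ENSG00000147155.10, chromosome X, 48521158 to 48528716), was at 62.5, 72.7 and 65.8 TPM in ATCC and 23.3, 29.9 and 29.8 in DSMZ. The sources were clearly separate for EBP (-1.26, SE 0.14; adjusted p = 0.000326). Coding transcripts gave 46.2% of EBP in ATCC and 47.6% in DSMZ. SC5D, the C5 desaturase, was at 37.1, 17.6 and 32.5 TPM in ATCC and 18.1, 13.05 and 16.3 in DSMZ. ATCC replicate 2 overlapped the DSMZ libraries for SC5D, and the value was -0.96 (SE 0.22; adjusted p = 0.00831), or -1.20 with the GC offset. DHCR7, the reductase of the last step in 1 branch of the pathway, was at 18.5, 21.5 and 15.5 TPM in ATCC and 10.01, 10.2 and 11.2 in DSMZ (-0.89, SE 0.17; adjusted p = 0.00339).

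Within a library, ratios between steps do not depend on its depth, and several separated the sources. The ratio of IDI1 to SQLE in TPM was 0.366, 0.252 and 0.324 in ATCC and 2.34, 2.27 and 2.28 in DSMZ. IDI1 transcript was thus below SQLE transcript in each ATCC library and above it in each DSMZ library. The ratio of FDPS to FDFT1, the enzymes on either side of the sterol branch point, was 1.41, 1.34 and 1.32 in ATCC and 2.33, 2.26 and 2.16 in DSMZ. Most FDPS transcript was on short non-coding models: on coding transcripts FDPS was at 47.8 TPM in ATCC and 50.8 in DSMZ, below FDFT1 at 198 and 127. Summed, the 12 enzymes from squalene on held 664 to 744 TPM in ATCC and 430 to 510 in DSMZ, with no overlap. The 8 before squalene held 547 to 572 and 539 to 701 TPM, which overlapped, and FDPS alone made up most of each of these sums. Of 8 ratios computed, FDPS to GGPS1 (4.52 to 8.16 in ATCC, 7.94 to 10.4 in DSMZ) and NPC2 to NPC1 (3.95 to 4.79 and 4.10 to 4.68) overlapped. These ratios restate the gene levels and carry no GC offset and no test of their own. Tested genes within 5 Mb had a median log2 fold change of 0.95 around IDI1 and -0.85 around SQLE. The ratios were not set against these medians.

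**Figure D3:**
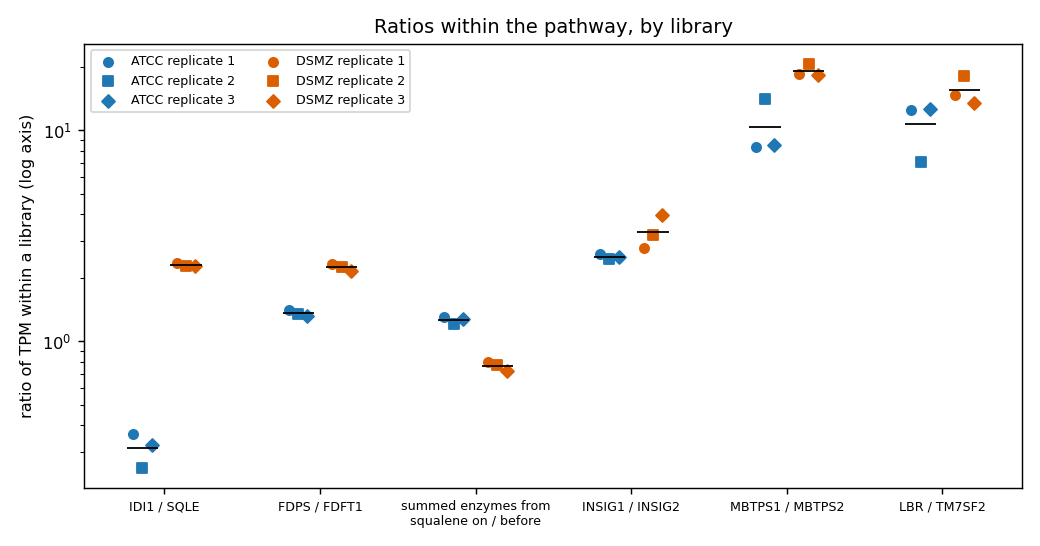
Ratios of TPM within each library on a log axis, with a bar at the mean of 3 libraries. IDI1 over SQLE lies between 0.252 and 0.366 in ATCC and between 2.27 and 2.34 in DSMZ, and FDPS over FDFT1 between 1.32 and 1.41 in ATCC and between 2.16 and 2.33 in DSMZ.

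The SREBP2 machinery changed in its brakes and in 1 protease. INSIG1, a retention protein whose own gene is a known SREBP2 target (ENSG00000186480.12, chromosome 7, 155297776 to 155310235), was at 38.9, 25.8 and 31.7 TPM in ATCC and 62.5, 68.3 and 94.1 in DSMZ. The log2 fold change was 1.26 (SE 0.20; adjusted p = 0.00158). INSIG2, the paralog with the same role but less dependent on SREBP2 (ENSG00000125629.14, chromosome 2, 118088452 to 118110997), was at 15.1, 10.5 and 12.6 TPM in ATCC and 22.6, 21.5 and 23.9 in DSMZ. It was higher in DSMZ by 1.14 (SE 0.20; adjusted p = 0.00229), or 0.86 with the GC offset. Both INSIG genes were thus higher in every DSMZ library than in every ATCC library. INSIG1 stayed above INSIG2, 2.45- to 2.58-fold in ATCC and 2.76- to 3.95-fold in DSMZ. Coding transcripts gave only 36.4% of INSIG2 in ATCC and 44.2% in DSMZ, and 98.8% of INSIG1 in both. On coding transcripts INSIG1 was at 31.7 TPM in ATCC and 74.1 in DSMZ, and INSIG2 at 4.71 and 10.02. INSIG2 was still higher in DSMZ on these (1.14, edgeR adjusted p = 0.00327).

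The factor and its escort differed less. SREBF2, which encodes SREBP2, was at 73.9, 82.4 and 88.4 TPM in ATCC and 86.1, 96.4 and 101 in DSMZ. These overlapped (0.22, SE 0.12; adjusted p = 0.157), and 2 SE spanned -0.01 to 0.46. SCAP was at 32.7 ± 1.66 TPM in ATCC and 38.6 ± 6.32 in DSMZ (0.28, SE 0.12; adjusted p = 0.087). Both passed with the GC offset, SREBF2 at 0.27 (adjusted p = 0.0207) and SCAP at 0.39 (adjusted p = 0.000407), and both passed without ATCC replicate 2. MBTPS1, the site-1 protease that makes the first cut in SREBP, was at 81.7 ± 1.13 TPM in ATCC and 74.7 ± 4.08 in DSMZ. Its TPM did not overlap, but its counts were not called (-0.05, SE 0.08; adjusted p = 0.634), and 2 SE spanned -0.21 to 0.11. MBTPS2, the site-2 protease that makes the second cut (ENSG00000012174.11, chromosome X, 21839636 to 21885424), was at 9.83, 5.72 and 9.75 TPM in ATCC and 3.93, 3.86 and 3.95 in DSMZ. It was lower in DSMZ by 1.08 on the log2 scale (-1.08, SE 0.19; adjusted p = 0.00268). MBTPS1 transcript exceeded MBTPS2 transcript 8.35- to 14.1-fold in ATCC and 18.2- to 20.5-fold in DSMZ.

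Promoter sequences of 5 of the genes are shown with letters that SREBP2 and other factors are known to bind. The 300 bases printed run from 250 before to 50 after a RefSeq start (GRCh38.p14), 5′ to 3′ on the strand of the gene. Capitals mark 4 motifs searched on both strands: the sterol regulatory element core TCACNCCAC, the E-box form TCACNTGA that SREBP can bind, the CCAAT box that NF-Y binds, and the GC box GGGCGG that Sp1 binds. They are the promoters of SREBF2 (chr22:41832855-41833154, plus strand), INSIG1 (chr7:155297628-155297927, plus), INSIG2 (chr2:118088300-118088599, plus), IDI1 (chr10:1049070-1049369, minus) and EBP (chrX:48521558-48521857, plus). INSIG2 and IDI1 have several starts in the table, and the first listed is shown. INSIG1 and INSIG2 are shown as the paralogs higher in DSMZ, IDI1 and EBP as enzymes that differed in opposite directions, and SREBF2 as the factor itself.
SREBF2: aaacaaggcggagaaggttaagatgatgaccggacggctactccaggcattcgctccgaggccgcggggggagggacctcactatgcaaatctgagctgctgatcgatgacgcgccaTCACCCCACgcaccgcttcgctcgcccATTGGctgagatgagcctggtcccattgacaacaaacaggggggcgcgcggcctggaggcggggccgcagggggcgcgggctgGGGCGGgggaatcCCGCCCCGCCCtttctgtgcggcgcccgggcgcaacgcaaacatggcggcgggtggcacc
INSIG1: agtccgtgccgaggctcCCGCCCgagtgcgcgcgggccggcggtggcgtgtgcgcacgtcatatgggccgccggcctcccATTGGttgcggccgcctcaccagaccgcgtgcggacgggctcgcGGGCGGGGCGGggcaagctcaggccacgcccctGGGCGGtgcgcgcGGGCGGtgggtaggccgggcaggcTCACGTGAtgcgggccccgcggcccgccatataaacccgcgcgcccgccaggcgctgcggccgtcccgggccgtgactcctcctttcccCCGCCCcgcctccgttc
INSIG2: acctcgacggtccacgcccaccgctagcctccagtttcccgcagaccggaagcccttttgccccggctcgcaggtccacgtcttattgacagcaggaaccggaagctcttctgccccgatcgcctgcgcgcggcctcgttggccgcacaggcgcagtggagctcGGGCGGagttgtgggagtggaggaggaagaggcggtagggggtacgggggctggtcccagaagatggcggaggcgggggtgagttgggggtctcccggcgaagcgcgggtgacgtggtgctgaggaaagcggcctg
IDI1: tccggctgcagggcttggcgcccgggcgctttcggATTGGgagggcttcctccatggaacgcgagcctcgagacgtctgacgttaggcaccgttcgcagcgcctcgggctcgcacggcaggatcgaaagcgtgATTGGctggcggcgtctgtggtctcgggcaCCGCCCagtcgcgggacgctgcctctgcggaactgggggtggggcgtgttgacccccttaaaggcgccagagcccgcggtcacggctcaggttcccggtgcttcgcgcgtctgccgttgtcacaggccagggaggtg
EBP: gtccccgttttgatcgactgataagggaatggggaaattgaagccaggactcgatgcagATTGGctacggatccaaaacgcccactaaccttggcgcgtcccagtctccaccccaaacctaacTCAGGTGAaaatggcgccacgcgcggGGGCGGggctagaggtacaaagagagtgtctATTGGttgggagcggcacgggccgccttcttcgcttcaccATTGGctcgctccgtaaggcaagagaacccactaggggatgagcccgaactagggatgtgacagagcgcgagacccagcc

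The SREBF2 promoter holds TCACCCCAC at position -133 from the start, with a CCAAT box at -106, read on the other strand as ATTGG. INSIG1 holds the palindrome TCACGTGA at -56, with 6 GC boxes and 1 CCAAT box. EBP holds TCAGGTGA at -127 and 3 CCAAT boxes, and IDI1 holds 2 CCAAT boxes, all in the reverse direction. INSIG2 holds 1 GC box and none of the other 3 motifs in this window. Promoters were found for 28 of the 31 genes, and not for ACAT2, FDFT1 and SQLE. Of the 28, 1 held the sterol element core, SREBF2, and 2 the E-box form, INSIG1 and EBP (7.14%). All of these are among the promoters shown. The shares were 1.48 and 5.36% of the tested genes with a promoter in the table and 1.13 and 3.79% of all 35116 promoters. A CCAAT box was in 20 of the 28 (71.4%), against 42.9% of those tested genes and 34.6% of all promoters. A GC box was in 24 of the 28 (85.7%), against 75.9% and 44.9%. The shares of all promoters count single promoters, and a gene can have several, so they are not on the same basis as the shares of genes. A match is a string of letters and not a measured site.

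Of 5 genes of cholesterol transport and storage, 1 was called, higher in DSMZ, and 3 were without ATCC replicate 2, where 64% of all genes were called. Their summed level was 153 to 161 TPM in ATCC and 178 to 199 in DSMZ, with no overlap, although the TPM of each single gene overlapped. STARD4, a soluble carrier that moves sterol between membranes, was at 25, 9.51 and 18.6 TPM in ATCC and 22.3, 22.3 and 30.6 in DSMZ. ATCC replicate 2 was far below the other 5 libraries, and STARD4 also had the lowest GC content of the 31 genes, 35.4%. Its log2 fold change was 0.56 (SE 0.35; adjusted p = 0.225), and 0.31 with the GC offset (adjusted p = 0.0609). NPC2, the lysosomal carrier that takes cholesterol from the lumen, was at 68.2 ± 12.7 TPM in ATCC and 82.7 ± 8.13 in DSMZ (0.34, SE 0.14; adjusted p = 0.0739). NPC1, the membrane protein that receives it, was at 16.02 ± 1.14 TPM in ATCC and 18.8 ± 2.45 in DSMZ (0.13, SE 0.11; adjusted p = 0.355). LIPA, the lysosomal acid lipase that frees cholesterol from lipoprotein esters, was at 30.7 ± 3.00 TPM in ATCC and 32.4 ± 2.31 in DSMZ (0.12, SE 0.09; adjusted p = 0.301), and 2 SE spanned -0.06 to 0.29. SOAT1, which esterifies cholesterol for storage in droplets, was at 29.8, 18.8 and 25.1 TPM in ATCC and 31.6, 31.6 and 26.8 in DSMZ. Its libraries overlapped. The call (0.35, SE 0.11; adjusted p = 0.034) was lost with the GC offset (0.14, adjusted p = 0.34), and without ATCC replicate 3 or any 1 of the DSMZ replicates (adjusted p of 0.0608 to 0.133). With the GC offset NPC2 passed (0.37, adjusted p = 0.00584).

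Many genes near some of these 31 genes differed in the same direction. Some whole chromosomes were shifted too. Over all its tested genes, chromosome 10 had a median log2 fold change of 1.03, chromosome 8 of -0.86 and chromosome X of -0.82. For each gene the median log2 fold change of the other tested genes within 5 Mb was taken, without the 31 themselves. Around IDI1, 18 neighbours had a median of 0.95, and 16 of them were above 0. The log2 fold change of IDI1 exceeded that median by 0.32, little more than its SE of 0.22. Around SQLE, 27 neighbours had a median of -0.85, and SQLE was 0.75 below it. The genes on chromosome X lay among genes lower in DSMZ, with medians of -0.94 for NSDHL, -0.81 for EBP and -0.52 for MBTPS2. NSDHL was 0.36, EBP 0.45 and MBTPS2 0.56 below its neighbours. Other members differed where the median of the neighbours was near 0. INSIG1 had 51 neighbours with a median of 0.01, and MSMO1 had 21 with a median of 0.00. INSIG2 had 29 with a median of 0.24 in its own direction, 19 of them above 0, and was 0.89 above that median. The widest gaps to the neighbours after INSIG1 were those of SOAT1, at 0.35 among 44 genes with a median of -0.84, and LIPA, at 0.12 among 52 with a median of 1.14. LBR, at 0.15 among 64 genes with a median of -0.43, and CYP51A1, at -0.31 among 38 with a median of 0.18, also had the opposite sign to their neighbours, without being called. Relative to their neighbours, the 12 enzymes from squalene on had a median of -0.47 and the 8 before it 0.16. The part of copy number in these values was not tested.

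The cultures of DSMZ also differed among themselves in this pathway more than in most genes. The median SD of the 20 enzymes across the 3 DSMZ libraries was 0.241 on the log2 scale, beside 0.0920 for all tested genes. In ATCC it was 0.196 beside 0.218, and with the GC offset 0.0746 beside 0.136. DSMZ replicate 3 was the highest DSMZ library in TPM for 12 of the 20 enzymes (60.0%, beside 24.4% of all tested genes) and replicate 1 the lowest for 15 (75.0%, beside 32.6%). With the GC offset, replicate 3 was highest for 15 of 20, beside 33.3% of all genes. The enzymes had a median log2 deviation from the DSMZ mean of 0.26 in replicate 3 and -0.19 in replicate 1. HMGCS1 was at 26.4 and 44.6 TPM in replicates 1 and 3, and MSMO1 at 16.2 and 26.3. INSIG1 moved likewise (62.5 and 94.1), while GGPS1, LBR, SC5D and MBTPS1 did not. DSMZ replicate 3 was also the deepest library and replicate 1 the shallowest, and the part of depth was not tested. Without DSMZ replicate 3, the log2 fold changes of IDI1, INSIG1 and SQLE were 1.12, 1.04 and -1.73, and all 3 still passed.

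**Figure D4:**
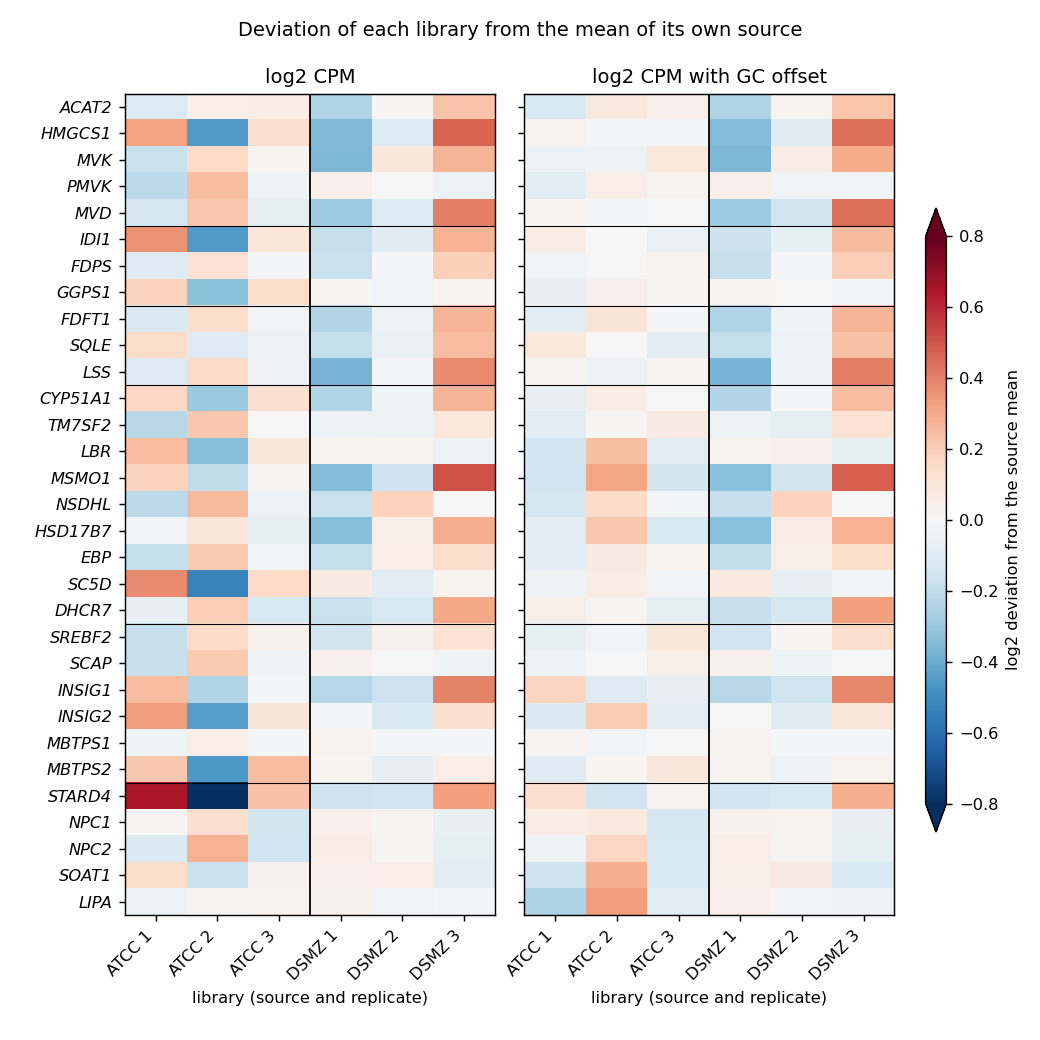
Log2 deviation of each gene in each library from the mean of its own source, for log2 CPM (left) and after the GC offset (right); red is above and blue below that mean. DSMZ replicate 3 is above the DSMZ mean for most synthesis enzymes in both panels, and the low values of ATCC replicate 2 for STARD4, SC5D and IDI1 shrink after the offset.

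The transcripts behind a gene level were mostly used alike. SQLE-201 gave 69.2% of SQLE transcript in ATCC and 64.2% in DSMZ on average, and IDI1-201 gave 77.9 and 76.6% of IDI1. The largest shift of mean share among the 3 leading transcripts of each gene was in DHCR7. DHCR7-201 held 35.2, 18.4 and 46.4% in ATCC and 3.39, 9.03 and 26.6% in DSMZ. DHCR7-202 held 4.79, 19.2 and 0.444% in ATCC and 30.3, 24.1 and 19.3% in DSMZ. The ranges overlapped for DHCR7-201 and were separated by a narrow gap for DHCR7-202. For HMGCS1, HMGCS1-202 held 34.7 to 46.9% in the ATCC libraries and 48.7 to 57.7% in DSMZ, again without overlap. These shares were not tested, and kallisto's estimates for such similar transcripts carry an error that the files do not give.

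Genes beside the core pathway were counted in 5 lists, with 17 of 88 tested genes higher in DSMZ and 32 in ATCC, beside 24.1% and 25.7% of all genes. Per list these counts are small, and no list was tested against the rest. Single libraries moved these counts. They came to 26 higher in DSMZ without ATCC replicate 2 (31.7% of all genes) and 11 without ATCC replicate 3. Those higher in ATCC came to 21 without DSMZ replicate 3. Without ATCC replicate 3 and without DSMZ replicate 3, 39.7 and 38.2% of all genes were called in either direction. Enzymes that make or spend non-sterol isoprenoids numbered 19, with 3 calls toward DSMZ and 7 toward ATCC. PDSS1, which builds the tail of coenzyme Q, was at 15.4 ± 1.59 TPM in ATCC and 28.9 ± 2.15 in DSMZ (1.011, SE 0.11). That value changed sign when set against the neighbours of PDSS1 within 5 Mb. RABGGTB, a subunit of Rab prenyltransferase, was also higher in DSMZ (1.03), while SRD5A3 (-1.23) and DOLK (-1.13), which act in dolichol synthesis, were lower. Of 19 genes of sterol-driven protein degradation and SREBP control, 3 were higher in DSMZ and 7 in ATCC. The paralogs ERLIN1 and ERLIN2, which form an endoplasmic reticulum complex that restrains SREBP, went opposite ways. ERLIN1 was at 40.2 ± 1.98 TPM in ATCC and 92.8 ± 10.3 in DSMZ (1.23, SE 0.09), and ERLIN2 at 94.5 ± 8.16 and 26.5 ± 3.90 (-1.88, SE 0.09). These values were not set against the chromosome medians given above. Whole chromosomes also went opposite ways, such as 10 (1.03) and 8 (-0.86). The part of such shifts in the ERLIN values was not tested. RNF145, a ligase that acts on SCAP, was higher in DSMZ (0.83). SREBF1, which encodes the fatty acid factor SREBP1, was at 10.6 ± 3.51 TPM in ATCC and 42.5 ± 1.98 in DSMZ (1.91, SE 0.10), beside the 0.22 of SREBF2.

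Of 15 lipoprotein uptake receptors and adaptors, 5 were higher in DSMZ and 6 in ATCC. The HDL receptor SCARB1 was at 111 ± 6.66 TPM in ATCC and 53.1 ± 0.85 in DSMZ (-1.001, SE 0.11). MYLIP, a ligase that removes lipoprotein receptors, was at 8.47 ± 0.56 and 15.5 ± 2.33 TPM (0.91, SE 0.14). The endosomal sorting genes COMMD1 (-1.05) and CCDC93 (0.88), whose products work in 1 complex, also went apart. Of 25 tested genes listed under sterol transfer and late endosomes, 6 were higher in DSMZ and 5 in ATCC. Among them were the esterase CES1 (0.73), the lysosomal protein LAMP2 (-0.67) and the oxysterol-binding OSBPL10 (-0.92). These counts also include the mitochondrial thiolase ACAT1 (-0.79), which was in the list without being a gene of sterol transfer. Oxysterol and side-branch enzymes numbered 10 after filtering, of which 7 were higher in ATCC and 0 in DSMZ. They included HSD11B1, a steroid reductase also active on oxysterols, at 81.8 ± 2.61 TPM in ATCC and 16.7 ± 2.03 in DSMZ (-2.31, SE 0.11), and the oxysterol hydroxylase CYP7B1 at 5.79 ± 1.81 and 1.34 ± 0.07 TPM (-2.16, SE 0.24). PLPP6 (-1.04) was lower in DSMZ too. The adjusted p of the genes named from these lists lay between 9.97e-06 and 0.0162 in edgeR's test.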

How the data were processed

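Poly(A) RNA of 6 cultures was sequenced with a stranded kit, per the labels' protocols. Tools named by the submitters' processing notes are kallisto 0.43.0, Trimmomatic 0.35 and bcl2fastq 2.20, with the GRCh38 build. The deposited files list, per transcript, kallisto's estimated counts (not normalized) and TPM, per the file headers. Transcripts were assigned to GENCODE 29 symbols by ID (97.0 to 97.4% of counts) or by the release's symbol table (2.42 to 2.85%), and 0.181 to 0.199% of counts had no gene. Estimated counts were summed per gene and rounded, TPM summed. All 31 genes passed edgeR's filterByExpr among 14569 tested.

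The test was edgeR 4.0.16 in R 4.3.3 (TMM, quasi-likelihood, source as the only term, Benjamini-Hochberg over all genes), checked on simulated data. The GC offset is a smooth of each library's deviations on transcript GC content. Alternatives used DESeq2 1.42.0, limma 3.58.1 on log2(TPM + 0.5) and log2(TPM + 0.1), other scalings and filters, a length offset, a replicate block and leaving out each library. A fit on coding transcripts was chosen after seeing the data. The genes, lists and motifs were chosen with earlier results of these data known. From each of the 5 neighbouring lists the text names at most 4 called genes, those with the largest absolute fold change and at least 1 CPM in a source, and a pseudogene is named where its symbol is built on that of a member. One gene that this rule would name is not reported here. TCP1, TBCE and VPS51, which overlap members, were named after results were seen. Intervals of 2 SE and all SDs cover these cultures only. No 2 libraries of a source were alike within sampling noise (smallest chi-square per degree of freedom 4.52).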

Additional observations from a re-analysis of the deposited data

How the results depend on the processing

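The 31 genes gave 5 calls higher in DSMZ and 11 in ATCC as first fitted. Those higher in DSMZ fell to 3 with upper quartile normalization, which called 48.8% of all genes and moved their median to -0.07. They came to 8 with the replicate block and GC offset together, where 64.1% of all genes were called. Leaving out single libraries gave 3 to 9 higher in DSMZ and 9 to 12 in ATCC, while 37.1 to 64% of all genes were called. In the neighbouring lists the same fits gave 11 to 26 higher in DSMZ, beside 17 as first fitted. That number was lowest without ATCC replicate 3 (39.7% of all genes called) and highest without ATCC replicate 2 (64%). Those higher in ATCC numbered 21 to 35, beside 32, and were fewest without DSMZ replicate 3 (38.2%). Whether the replicate numbers pair the cultures was not settled, because deviations correlated weakly across genes. Same-numbered replicates were at 0.0127, 0.0801 and 0.161, and DSMZ replicate 1 correlated best with ATCC replicate 2 (0.0257). With the GC offset, same-numbered replicates were at 0.045, 0.0225 and 0.122, and DSMZ replicate 2 correlated best with ATCC replicate 1 (0.0369). With the replicate block 10 genes were higher in ATCC and 4 in DSMZ, where 48.1% of all genes were called. Among single genes, 4 that were not called changed sign in some fits. MVK, at 0.01, was at -0.072 with upper quartile normalization, -0.0049 with the replicate block, -0.0021 on primary assembly transcripts, -0.18 on coding transcripts, and -0.13 to 0.16 when single libraries were left out. LBR was at -0.12 with the GC offset and -0.11 with block and GC offset, LIPA at -0.0013 with the GC offset, and LSS at -0.025 without DSMZ replicate 3 within a range of -0.025 to 0.333 over the left-out libraries. Against their neighbours within 5 Mb, 20 of the 31 values moved by more than their SE, and LIPA (-1.02), SCAP (-0.0038), MBTPS1 (0.0069), PDSS1 (-0.083) and LAMP2 (0.076) changed sign; this setting has no test and gives no counts. The cause of these changes was not tested. Effective lengths in the files are the same in every library, so the length offset reflects transcript mixture only.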
